A study of Mus musculus with 6 samples.

Results

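Toll-like receptors pass their signal into the cell through a short chain of adaptors and kinases, and 10 genes of that chain were followed here. They were selected by name as the adaptors Myd88 and Tirap, the kinase family Irak1, Irak2, Irak3 and Irak4, the ubiquitin ligase gene Traf6, the kinase gene Map3k7 (which encodes TAK1) with its partner Tab2, and the kinase gene Map3k8 (which encodes TPL-2). The 10 genes stand among 17951 listed in at least 1 library, and all 10 were listed in every library and were tested. The cells were bone marrow-derived macrophages, which are primary macrophages grown from the marrow of wild-type C57BL/6 mice aged 8 weeks, cultured for 4 to 6 days with 10% serum and 10% L929 conditioned medium. In the first group, 3 libraries came from macrophages given dopamine (DA, a catecholamine) 2 h before a 6 h stimulation with Pam3CSK4, a lipopeptide made to engage the pair of Toll-like receptors 1 and 2. In the second group, 3 libraries came from macrophages given Pam3CSK4 without DA. Both groups therefore carry the stimulus, cells without Pam3CSK4 were not analysed here, and the level in the Pam3CSK4 group is not a resting level. The labels do not say whether replicates came from separate mice or cultures, so p-values refer to the spread among these 6 libraries, which may be technical. In bulk RNA of this kind, less of a transcript per cell and fewer cells that carry it cannot be told apart.

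As background, ligand binding brings the Toll/interleukin-1 receptor domains of the receptors together, and TIRAP, also called Mal, bridges them to MyD88. MyD88 gathers IRAK4, IRAK1 and IRAK2 into an assembly called the Myddosome, while IRAK3, also called IRAK-M, is known mainly as a brake on this step in macrophages. The IRAK kinases engage TRAF6, which builds ubiquitin chains that TAB2 binds, and this activates TAK1, the kinase upstream of the IkB kinases and of the p38 and JNK pathways. TPL-2 is held in a complex with the NF-kB precursor p105, the product of Nfkb1, and after its release it activates the ERK pathway.

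Depth was nearly equal, from 21337932 to 21518425 expected counts per library. Macrophage marker genes had a summed FPKM (a level per transcript length and library size) of 14270 to 15420 in the DA libraries, against 18630 to 19180 in the Pam3CSK4 libraries, and 1 gene, Lyz2, made up most of it. Of the 7 macrophage markers 5 were called lower with DA, among them Lyz2 and Adgre1, Cd68 was not called, and Fcgr1 was higher, at 150.52 to 154.43 FPKM with DA and 48.24 to 61.86 FPKM with Pam3CSK4. The lists for erythroid cells, mast cells, dendritic cells, lymphoid T and NK cells, and B cells each summed to at most 1.16 FPKM in any library, and Pax5, Cpa3, Fcer1a and Hbb-bs were not listed. Neutrophil markers summed to 14.74 to 19.26 FPKM with DA and 18.96 to 23.08 FPKM with Pam3CSK4, sums that overlap, and of these markers only Camp was called (lower). Stromal markers summed to 88.43 to 94.3 FPKM with DA and 92.54 to 95.49 FPKM with Pam3CSK4, nearly all of it Col1a1, and endothelial markers to 1.71 to 2.13 FPKM and 1.58 to 1.98 FPKM. Of the markers outside the macrophage and neutrophil lists, Xcr1 was called higher with DA and Cd8a, Pdgfra and Kdr lower, each at most 0.99 FPKM. The part of these marker differences in the results below was not tested.

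Transcripts of most of the 10 genes were lower in the DA libraries, with the largest falls in Irak2, Map3k8 and Irak3 and small rises in Irak1 and Irak4. Of the 10 genes, 8 passed an adjusted p of 0.05 in edgeR's quasi-likelihood test, 6 of them lower with DA and 2 higher. The corresponding shares among all 12390 genes tested were 64.4% for either direction, 31.8% for lower and 32.6% for higher, so DA libraries differed from Pam3CSK4 libraries across much of the transcriptome. The groups did not overlap in CPM (counts divided by a library size scaled with edgeR's TMM method, times 1e+06) for the same 8 genes, against 68.7% of all genes tested. The median log2 fold change of the 10 genes, always given as DA minus Pam3CSK4, was -0.333, beside 0.02 for all genes tested. With upper-quartile factors, another scaling, the median of all genes tested was 0.135 and that of the 10 genes was -0.218. In summed FPKM the 10 genes reached 356.2, 337.0 and 341.0 in the DA libraries, against 561.9, 553.5 and 538.6 in the Pam3CSK4 libraries.

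**Figure D1:**
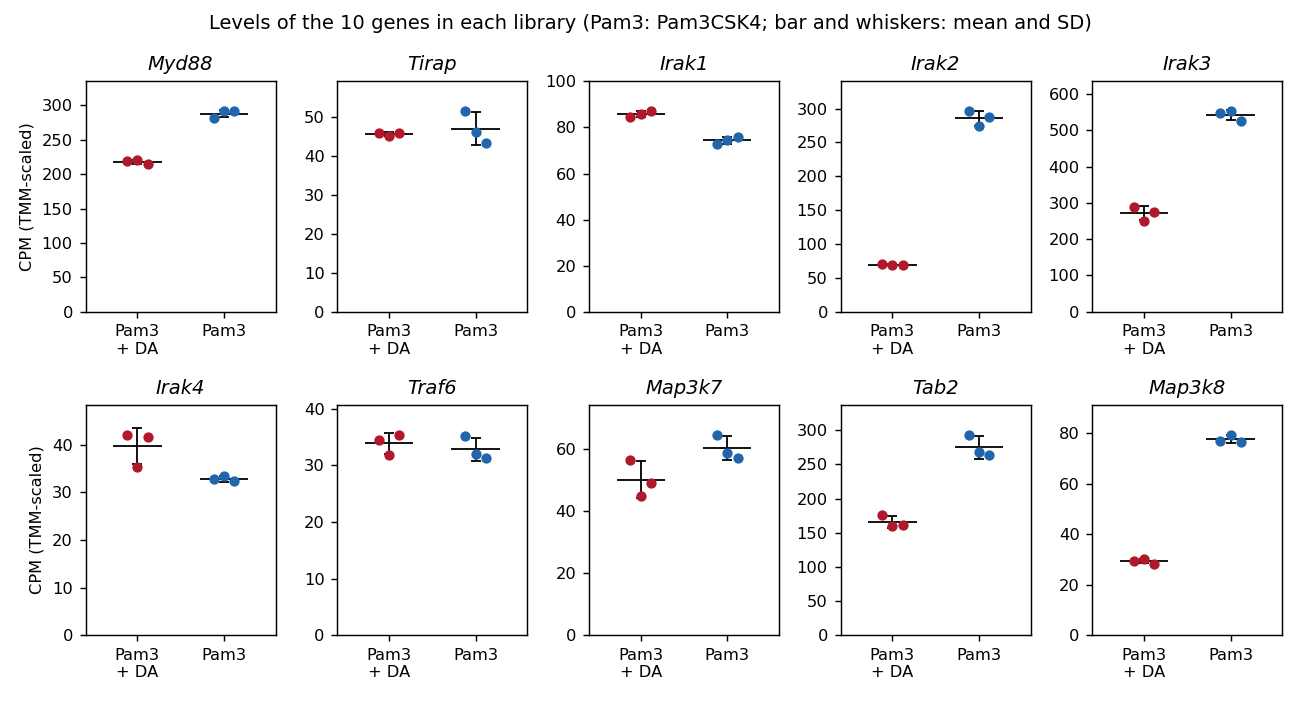
CPM of each of the 10 genes (vertical axes from 0, scaled gene by gene) in the 3 Pam3CSK4 plus DA libraries (red, left) and the 3 Pam3CSK4 libraries (blue, right), with the mean and SD in black. The groups stand apart for 8 genes and overlap for Tirap and Traf6, and the largest fold difference is that of Irak2, at 69.27 CPM with DA and 285.5 CPM with Pam3CSK4.

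Of the 2 adaptors, Myd88 fell and Tirap was not called. Myd88 (Entrez 17874), which encodes the adaptor shared by most Toll-like receptors and the interleukin-1 receptor family, lies on chromosome 9 at 119335934 to 119341411 on the minus strand in GENCODE's annotation of GRCm38. It had 219.9, 220.4 and 215.0 CPM in the DA libraries, against 281.7, 291.8 and 291.3 CPM in the Pam3CSK4 libraries. All DA libraries lay below all Pam3CSK4 libraries and the spread within each group was small, 218.5 ± 2.97 CPM with DA and 288.3 ± 5.71 CPM with Pam3CSK4 (mean ± SD, n = 3). The log2 fold change was -0.40 (SE 0.049, edgeR adjusted p = 5.88e-06).

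Tirap (Entrez 117149) lies on the same chromosome at 35184551 to 35200291, also on the minus strand. It had 45.87, 45.08 and 46.04 CPM with DA, against 51.55, 46.27 and 43.27 CPM with Pam3CSK4. The DA values lay inside the wider range of the Pam3CSK4 values. Its log2 fold change was -0.04 (95% interval -0.19 to 0.10, edgeR adjusted p = 0.603), and its sign turned, still uncalled, with upper-quartile factors, on FPKM and without Pam3CSK4 replicate 1 (0.03 for that fit). Per length, Myd88 stood 11.68-fold above Tirap in FPKM with DA and 15.12-fold with Pam3CSK4.

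The IRAK family divided: Irak2 and Irak3 fell with DA, while Irak1 and Irak4 rose slightly. Irak2 (Entrez 108960, chromosome 6 at 113638467 to 113695026, plus strand) encodes the family member known for sustaining signalling after the first wave. It had 70.12, 68.69 and 69.0 CPM in the DA libraries, against 296.2, 273.6 and 286.8 CPM in the Pam3CSK4 libraries. Each DA library held less than any Pam3CSK4 library by a wide margin, and the log2 fold change of -2.04 (SE 0.054, edgeR adjusted p = 9.71e-13) corresponds to a 4.12-fold lower level. Only 210 of the genes tested, or 1.7%, had a lower log2 fold change.

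Irak3 (Entrez 73914, chromosome 10 at 120141648 to 120202130, minus strand) had 289.4, 250.0 and 275.7 CPM with DA, against 547.3, 553.2 and 527.0 CPM with Pam3CSK4. The groups were far apart relative to their spread. Its level was 1.997-fold lower (log2 fold change -0.998, SE 0.059, edgeR adjusted p = 2.57e-09), and 932 genes, 7.52% of those tested, had a lower log2 fold change.

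Irak1 (Entrez 16179, X chromosome at 74013914 to 74023918, minus strand) encodes a kinase that IRAK4 phosphorylates in the Myddosome. It had 84.75, 85.83 and 87.09 CPM with DA, against 72.85, 74.58 and 75.71 CPM with Pam3CSK4. The DA libraries were all higher, by a small step that exceeded the spread within groups. The log2 fold change was 0.21 (SE 0.052, edgeR adjusted p = 0.00318), and it was 0.32 with upper-quartile factors.

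Irak4 (Entrez 266632, chromosome 15 at 94543643 to 94581815, plus strand), the gene of the first kinase recruited to MyD88, had 42.06, 35.36 and 41.64 CPM with DA, against 32.7, 33.46 and 32.34 CPM with Pam3CSK4. DA replicate 2 lay close above the Pam3CSK4 libraries and the other two DA libraries well above them. The log2 fold change was 0.27 (SE 0.073, edgeR adjusted p = 0.00475).

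Since these 4 related genes moved in opposite directions, bases just upstream of a start site of each are given below, as RefSeq sequence on GRCm38.p6 in the direction of transcription. The regions are chrX:74023919-74024168 (minus strand) for Irak1, chr6:113638217-113638466 (plus strand) for Irak2, chr10:120201660-120201847 (minus strand) for Irak3 and chr15:94543410-94543659 (plus strand) for Irak4. The Irak3 region is shorter because it ends at the start of NM_028679, the transcript that the files list for Irak3, at 120201659. For Irak4 the region lies before the RefSeq start site at 94543660. GENCODE starts NM_029926, the transcript listed for Irak4, at 94543643, so the last bases printed for Irak4 lie within it. Capitals mark matches, on either strand, to the NF-kB consensus or to the letters TGACG, the core of the cAMP response element.
Irak1: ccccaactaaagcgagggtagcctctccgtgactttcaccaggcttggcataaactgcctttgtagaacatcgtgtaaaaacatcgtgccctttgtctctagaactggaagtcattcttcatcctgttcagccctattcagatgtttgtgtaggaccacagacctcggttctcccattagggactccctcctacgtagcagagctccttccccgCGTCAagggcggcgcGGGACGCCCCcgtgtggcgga
Irak2: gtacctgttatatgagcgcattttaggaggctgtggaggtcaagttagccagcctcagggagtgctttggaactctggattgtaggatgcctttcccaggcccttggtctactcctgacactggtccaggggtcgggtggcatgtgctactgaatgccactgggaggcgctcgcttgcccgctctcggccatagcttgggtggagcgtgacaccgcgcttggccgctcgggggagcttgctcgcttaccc
Irak3: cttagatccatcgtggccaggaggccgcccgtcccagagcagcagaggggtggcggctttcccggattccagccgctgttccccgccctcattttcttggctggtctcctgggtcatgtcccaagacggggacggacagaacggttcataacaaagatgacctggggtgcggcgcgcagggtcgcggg
Irak4: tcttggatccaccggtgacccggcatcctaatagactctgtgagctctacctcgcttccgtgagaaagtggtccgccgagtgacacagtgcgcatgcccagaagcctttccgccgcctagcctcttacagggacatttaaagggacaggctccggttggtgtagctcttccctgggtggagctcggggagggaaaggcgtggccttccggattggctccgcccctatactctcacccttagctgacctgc
Among the bases printed only those of Irak1 hold capitals, and none holds the AP-1 letters TGANTCA. Irak3 has a TGACG match further on, 2 bases past the RefSeq start site at 120201597 and so within NM_028679, and its other RefSeq window, at 120202130, has none. The search covered 300 bases for each start site, 250 before and 50 after it, in 13 such windows of 9 of the genes. A match to the NF-kB consensus was found in 3 of the 13 windows (2 overlapping windows of Irak1 and that of Map3k7), and 8.46% of all 32851 RefSeq windows hold one. TGACG was found in 5 of the 13 windows, of Irak1, Irak3, Map3k7 and Tab2, and 20.8% of all windows hold it. The 2 overlapping windows of Irak1 hold the same TGACG, so the 13 windows are not independent. TGANTCA was found in 0 of the 13, against 7.81% of all windows. TGACG and the other motifs can overlap, and a match describes the letters only.

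The make-up of the IRAK family by FPKM differed accordingly. The 4 genes summed to 153.1 ± 7.50 FPKM with DA and to 291.8 ± 6.77 FPKM with Pam3CSK4 (SD, n = 3 each). Irak3 was the most abundant in both groups and held a similar part of the sum, 61.09% ± 1.25 with DA and 60.25% ± 1.06 with Pam3CSK4 (SD, n = 3). Irak2 held 14.6% ± 0.737 with DA and 29.5% ± 1.07 with Pam3CSK4 (SD, n = 3). Irak1 held 14.94% ± 0.865 with DA and 6.41% ± 0.219 with Pam3CSK4, and Irak4 held 9.37% ± 0.418 with DA and 3.84% ± 0.0698 with Pam3CSK4 (SD, n = 3). In FPKM itself these genes differed less, because each share also depends on the lower sum with DA. Irak1 had a mean of 22.84 FPKM with DA and 18.7 with Pam3CSK4, and Irak4 14.37 and 11.19. An exact permutation test, two-sided, with 20 possible assignments gave p = 0.1 for Irak1, Irak2 and Irak4, the smallest value this design allows, and p = 0.5 for Irak3 (0.133 and 0.5 adjusted over the 4 shares). No share could therefore pass a threshold of 0.05, although those of Irak1, Irak2 and Irak4 did not overlap between groups.

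**Figure D2:**
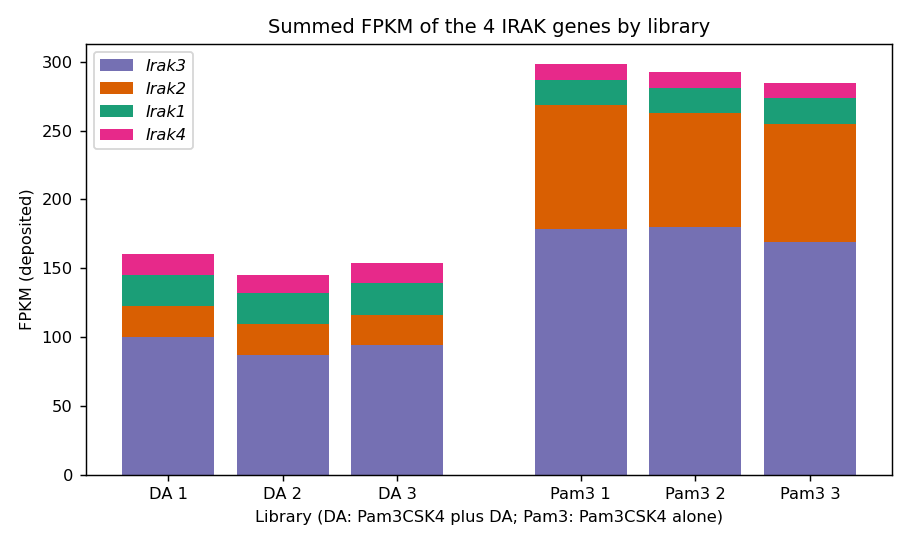
Summed FPKM (vertical axis, from 0) of Irak3, Irak2, Irak1 and Irak4 in each library, the 3 Pam3CSK4 plus DA libraries at left and the 3 Pam3CSK4 libraries at right. The stacks reach 145.1 to 160.0 with DA and 284.6 to 298.0 with Pam3CSK4, and the Irak2 segment is the one that differs most between groups relative to its size.

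Ratios between single genes, which were picked after their values were seen and carry no test, show the same shift. Irak2 stood at 0.996, 0.975 and 0.96 of the Irak1 level in FPKM in the DA libraries, against 4.855, 4.425 and 4.535 times the Irak1 level in the Pam3CSK4 libraries. Irak1 and Irak2 were thus present at nearly equal FPKM with DA, whereas Irak2 was far above Irak1 with Pam3CSK4. The ratio of Irak3 to Irak4, the brake to the first kinase, was 6.52 ± 0.213 with DA and 15.71 ± 0.209 with Pam3CSK4 (SD, n = 3). Myd88 stood 8.09 ± 0.874 times above Irak4 with DA and 12.82 ± 0.298 times with Pam3CSK4 (SD, n = 3).

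At the ubiquitin and TAK1 step, Tab2 fell clearly, Map3k7 fell slightly and Traf6 was not called. Traf6 (Entrez 22034, chromosome 2 at 101678429 to 101701669, plus strand) had 34.47, 31.76 and 35.36 CPM with DA, against 35.1, 32.02 and 31.27 CPM with Pam3CSK4. The groups overlapped almost fully. The log2 fold change was 0.05 (95% interval -0.10 to 0.20, edgeR adjusted p = 0.583), and Traf6 was called higher only with upper-quartile factors (0.16, adjusted p = 0.0448).

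Map3k7 (Entrez 26409, chromosome 4 at 31964097 to 32023467, plus strand) had 56.59, 44.9 and 49.14 CPM with DA, against 64.72, 58.98 and 57.37 CPM with Pam3CSK4. The groups did not overlap in CPM, but the highest DA library, replicate 1, lay just under the lowest Pam3CSK4 library. The log2 fold change was -0.27 (SE 0.081, edgeR adjusted p = 0.0101). It was -0.15 with upper-quartile factors (adjusted p = 0.0846) and -0.16 by limma on log2(FPKM + 1) (adjusted p = 0.107), so the call was lost under those settings, while it was kept with DESeq2's size factors (-0.28, adjusted p = 0.00862).

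Tab2 (Entrez 68652, chromosome 10 at 7905653 to 7956230, minus strand), whose product binds ubiquitin chains and brings TAK1 to TRAF6, had 176.2, 160.5 and 161.4 CPM with DA, against 293.4, 268.0 and 263.3 CPM with Pam3CSK4. Every DA library lay well below every Pam3CSK4 library. It was 1.66-fold lower (log2 fold change -0.73, SE 0.06, edgeR adjusted p = 9.49e-08). Of the further subunits of the TAK1 complex, Tab1, which encodes an activator bound directly to TAK1, was higher with DA at 14.69 ± 0.607 CPM, against 10.51 ± 0.361 CPM with Pam3CSK4 (SD, n = 3; log2 fold change 0.48, edgeR adjusted p = 0.000118). Tab3, the relative of Tab2, was lower at 8.22 ± 1.09 CPM with DA, against 10.96 ± 1.55 CPM with Pam3CSK4 (SD, n = 3; log2 fold change -0.41, edgeR adjusted p = 0.00851), and its call was lost without DA replicate 3 (-0.30, adjusted p = 0.0586) and on FPKM. The ratio of Tab2 to Map3k7 in FPKM was 4.46 ± 0.316 with DA and 6.12 ± 0.0452 with Pam3CSK4 (SD, n = 3).

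Map3k8 (Entrez 26410, chromosome 18 at 4331327 to 4353015, minus strand) fell with DA. It had 29.48, 30.23 and 28.41 CPM in the DA libraries, against 76.84, 79.25 and 76.59 CPM in the Pam3CSK4 libraries. The groups were narrow and far apart, with a 2.64-fold lower level with DA (log2 fold change -1.40, SE 0.058, edgeR adjusted p = 5.93e-11), and 506 genes, 4.08% of those tested, had a lower log2 fold change. Both partners of its product were lower as well. Nfkb1, which encodes p105, had 175.8 ± 5.42 CPM with DA and 720.8 ± 35.9 CPM with Pam3CSK4 (SD, n = 3; log2 fold change -2.04, edgeR adjusted p = 1.1e-12). Tnip2, which encodes ABIN-2, the other protein of the complex, had 37.66 ± 1.65 CPM with DA and 47.74 ± 1.97 CPM with Pam3CSK4 (SD, n = 3; log2 fold change -0.34, edgeR adjusted p = 0.000254). In FPKM, Map3k8 stood at 0.277 ± 0.0143 of the Nfkb1 level with DA and 0.179 ± 0.0105 with Pam3CSK4, and at 0.61 ± 0.0102 of the Tnip2 level with DA and 1.27 ± 0.0296 with Pam3CSK4 (SD, n = 3).

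The level order within the chain also differed between groups. By mean FPKM in the DA libraries it ran Myd88 (115.6), Irak3 (93.6), Tab2 (39.55), Irak1 (22.84), Irak2 (22.31), Irak4 (14.37), Map3k8 (12.02), Tirap (9.89), Map3k7 (8.91) and Traf6 (5.68). In the Pam3CSK4 libraries it ran Irak3 (175.8), Myd88 (143.4), Irak2 (86.07), Tab2 (61.6), Map3k8 (29.83), Irak1 (18.7), Irak4 (11.19), Map3k7 (10.08), Tirap (9.54) and Traf6 (5.15). In either group the only neighbours whose libraries overlapped were Tirap and Map3k7. Myd88 was therefore the most abundant with DA and Irak3 with Pam3CSK4, and Irak2 stood below Tab2 and Irak1 with DA but above both with Pam3CSK4. The highest coefficient of variation of any of the 10 genes in FPKM was 11.62% with DA and 9.59% with Pam3CSK4.

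Beyond the 10 genes, 32 other genes of the same pathway in 6 groups were examined, 29 of which were tested. Of these 8 were higher with DA, 16 lower and 5 not called. Among all genes tested 32.6% were higher and 31.8% lower, 64.4% in either direction, and these shares also stand beside the counts by group that follow. The median log2 fold change of the 29 genes was -0.283, beside 0.02 for all genes tested. Among receptors and accessory proteins 2 of 5 fell, 1 rose and 2 were not called. Tlr1 and Tlr2, the receptor pair for Pam3CSK4, were 2.8-fold and 2.23-fold lower (log2 fold changes -1.49 and -1.16, edgeR adjusted p = 1.65e-11 and 1.44e-10). Tlr6, the alternative partner of Tlr2, had 38.16 ± 1.21 CPM with DA and 36.84 ± 1.96 CPM with Pam3CSK4 (SD, n = 3; edgeR adjusted p = 0.505). Expected counts of Tlr1 and Tlr6 add up to whole numbers in all 6 libraries, so reads were divided between them and each value is uncertain. Cd36, a scavenger receptor gene, rose (log2 fold change 0.45, edgeR adjusted p = 1.71e-05).

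**Figure D3:**
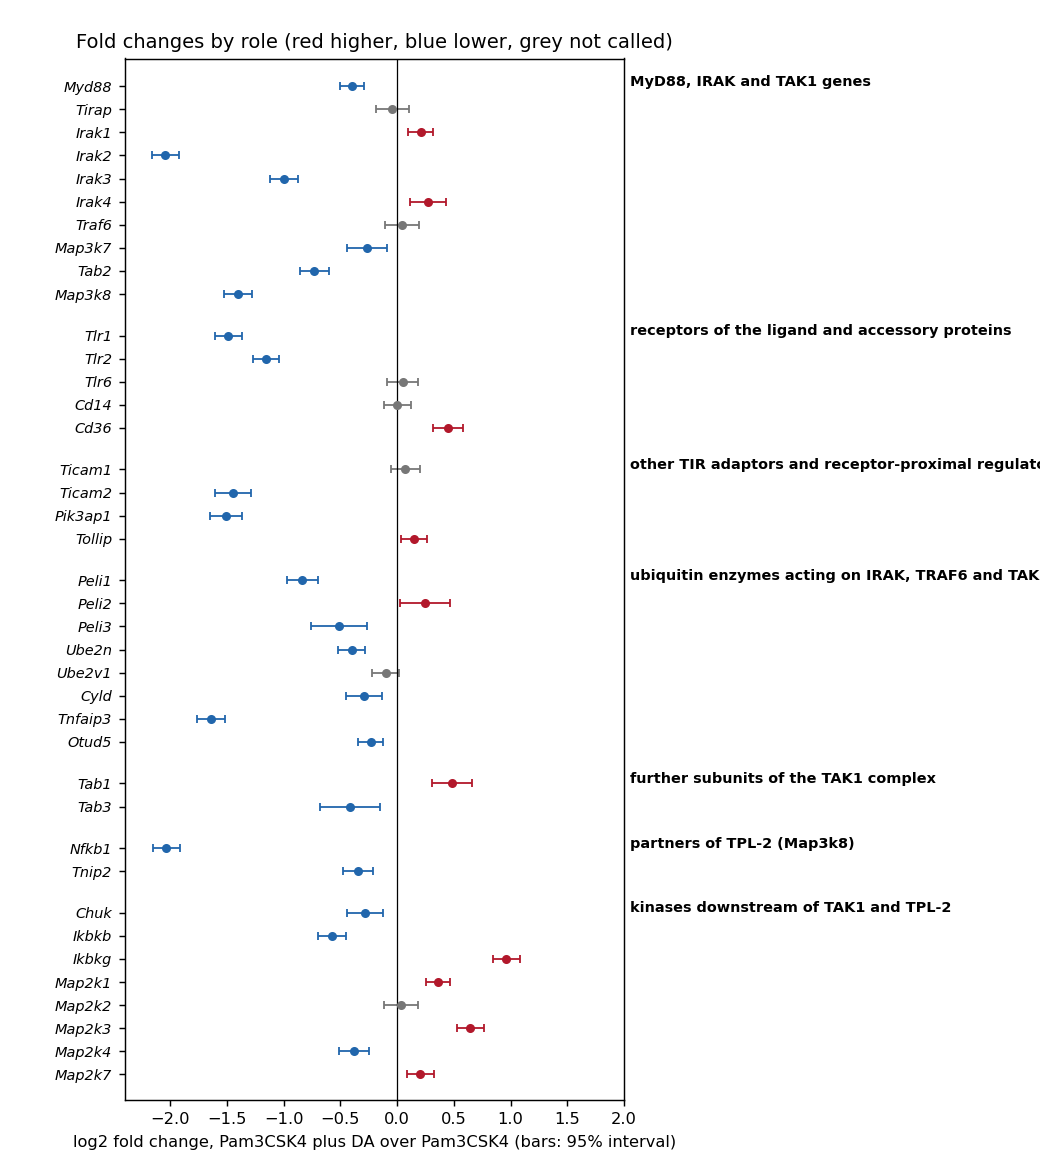
Log2 fold change (horizontal axis, Pam3CSK4 plus DA over Pam3CSK4) with its 95% interval for the 10 genes and the 29 other pathway genes tested, in groups by role, red where called higher, blue where called lower and grey where not called. The lowest points are Irak2 at -2.04 and Nfkb1 at -2.04, and the highest is Ikbkg at 0.96.

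Of 6 other adaptors and receptor-proximal regulators, 4 were tested. Pik3ap1, which encodes the signalling adaptor BCAP, and Ticam2, which encodes the adaptor TRAM, fell (log2 fold changes -1.51 and -1.45, edgeR adjusted p = 1.2e-10 and 5.75e-10). Tollip, which encodes an inhibitor of IRAK1 activation, had 137.2 ± 3.66 CPM with DA and 123.8 ± 5.03 CPM with Pam3CSK4 (SD, n = 3; log2 fold change 0.15, edgeR adjusted p = 0.0261). That small rise was lost under 6 of 16 other settings, 4 of which left out a single library. Sarm1 and Sigirr were too low to be tested.

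Among 8 ubiquitin enzyme genes of the pathway, 6 fell, 1 rose and 1 was not called, beside 31.8% lower and 32.6% higher among all genes tested. Tnfaip3, which encodes the deubiquitinase A20, had 450.0 ± 24.4 CPM with DA and 1399 ± 70.3 CPM with Pam3CSK4 (SD, n = 3; log2 fold change -1.64, edgeR adjusted p = 1.16e-11). Peli1, which encodes the ubiquitin ligase Pellino 1, was 1.78-fold lower (log2 fold change -0.83, edgeR adjusted p = 3.8e-08). The one that rose, Peli2 (log2 fold change 0.25, edgeR adjusted p = 0.0486), lost its call under 12 of 16 other settings. Enzymes that extend the signal and enzymes that end it were both among the 6.

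Of the 9 kinases and kinase subunits downstream, 8 were tested, and 4 were higher and 3 lower. Ikbkg, which encodes the IkB kinase's regulatory subunit NEMO, had 144.2 ± 2.78 CPM with DA and 74.06 ± 3.43 CPM with Pam3CSK4 (SD, n = 3; log2 fold change 0.96, edgeR adjusted p = 1.84e-09). Expected counts of Ikbkg were not whole numbers in every library, which marks divided reads, and no partner gene was identified, so its level is uncertain. Ikbkb, which encodes a catalytic subunit of the IkB kinase, went the other way (log2 fold change -0.58, edgeR adjusted p = 7.11e-07). Map2k3, a kinase gene upstream of p38, was higher (0.64, edgeR adjusted p = 1.47e-07) and Map2k4, a kinase gene upstream of JNK, was lower (-0.38, edgeR adjusted p = 9.54e-05).

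**Figure D4:**
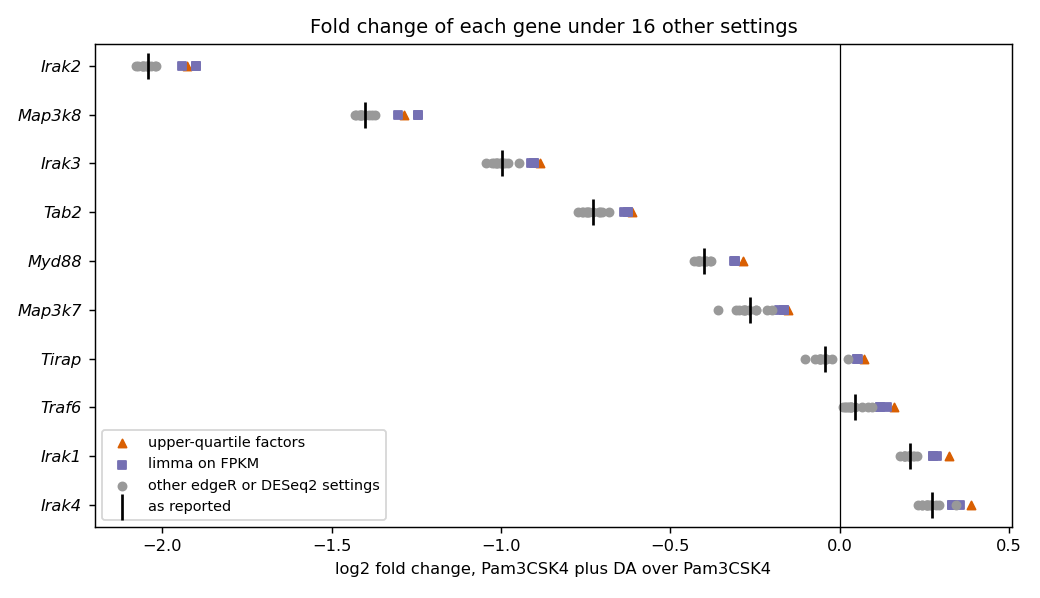
Log2 fold change (horizontal axis, Pam3CSK4 plus DA over Pam3CSK4) of each of the 10 genes as reported (black bar) and under 16 other settings (orange upper-quartile factors, purple limma on FPKM, grey the rest). Tirap crosses 0 with upper-quartile factors, on FPKM and without Pam3CSK4 replicate 1, and the other 9 genes stay on one side.

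The genes whose profile over the 6 libraries lay closest to that of Irak2 were sought among 8684 genes whose mean was 5 CPM or more, by the root-mean-square difference between centred log2(CPM + 1) values. The nearest was Nfkb1 (0.0302), followed by Adam19 (0.0389), St7 (0.0416), Map3k5 (0.0562) and Lrch1 (0.0562). In FPKM, Irak2 stood at 0.514 ± 0.0129 of the Nfkb1 level with DA and at 0.514 ± 0.0163 with Pam3CSK4 (SD, n = 3). Nfkb1 was picked as the nearest profile in these same libraries, so a similar ratio in both groups follows from that choice. The root-mean-square differences describe likeness over 6 libraries that share the group difference.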

How the data were processed

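Groups were taken from the sample titles. The series title spells DA out as dopamine. In the DA samples the source field alters the last digit of the ligand's name, and the titles were used. RNA was sequenced on a BGISEQ-500, per the labels. Per the file headers, the authors deposited expected counts (estimated reads per gene, not normalized), FPKM values scaled by length and library size, and a transcript length in bases. Bowtie2 2.2.5 and GRCm38.p5 are named in the submitters' processing notes, and for the quantifier the program is not given in the sources used here. Genes that a file does not list were taken as 0.

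Expected counts were rounded, edgeR 4.0.16 (R 4.3.3) filterByExpr removed 5561 genes, and 12390 were normalized by TMM (mean factor 1.032 with DA and 0.969 with Pam3CSK4) and compared by the quasi-likelihood test, with Benjamini-Hochberg adjustment over all of them and a threshold of 0.05. The biological coefficient of variation was 0.0562. The SE of a log2 fold change is its size over the square root of F. The script was tested on simulated data. Intervals cover the spread between libraries only.

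The 10 genes, the pathway and marker lists, the rules and the tests were chosen with earlier results of these data known. All 10 genes are named, and from each pathway group up to 2 called higher and 2 called lower with the smallest adjusted p, groups of 2 in full, and Tlr1, Tlr2 and Tlr6 in any case. Likeness names the 5 nearest genes to the largest fall, and the same for the largest rise is not reported here. Locations are from GENCODE M21 and promoter windows from RefSeq, matched by symbol for 9 genes. Alternatives were DESeq2 1.42.0 size factors and its Wald test, upper-quartile factors, limma 3.58.1 on log2(FPKM + 1), with a minimum FPKM of 1 in 3 libraries or no minimum, the same with a pseudocount of 0.1, counts unfiltered or at a mean of 50 and above, the replicate block and each library left out. A normalization without the 50 most abundant genes was chosen after seeing the data.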

Additional observations from a re-analysis of the deposited data

How the results depend on the processing

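Over 160 recomputed values of the 10 genes (16 settings each), 150 kept their direction and their side of the threshold. Irak2 stayed between -2.08 and -1.90, Map3k8 between -1.43 and -1.24, Irak3 between -1.04 and -0.88, Tab2 between -0.77 and -0.61, Myd88 between -0.43 and -0.28, Irak1 between 0.18 and 0.32 and Irak4 between 0.23 and 0.39, all called. Tirap, uncalled throughout, had 0.073 with upper-quartile factors, 0.05 by limma on log2(FPKM + 1), with or without a filter, 0.055 on log2(FPKM + 0.1), and -0.102 to 0.025 with 1 library left out. Traf6 was called with upper-quartile factors (0.161). Map3k7 lost its call with upper-quartile factors (-0.152), by limma on log2(FPKM + 1) with a filter (-0.164) or without (-0.164, adjusted p = 0.193) and on log2(FPKM + 0.1) (-0.179). The cause was not tested. By CPM in place of FPKM the share of Irak1 differed by 10.49 percentage points, against 8.53, and that of Irak4 by 4.98, against 5.54. Of 288 values of the named pathway genes 265 kept their call, 22 lost it (Tollip, Peli2 and Tab3) and Tlr6 gained it with upper-quartile factors (0.165). The split of calls over all genes was 4043 higher and 3938 lower, with upper-quartile factors 5055 and 3138, and by limma on log2(FPKM + 1) 4229 and 2858. With the replicate block it was 4223 and 4111, the same 8 of the 10 genes were called, and of the named genes only Peli2 lost its call. Deviations of same-numbered libraries correlated at 0.249, 0.0361 and 0.0748. Libraries with different numbers were not compared in this way, so these values cannot decide whether the numbers mark pairs. The main fit did not treat them as pairs. With 3 libraries per group, small differences such as those of Tirap and Traf6 are limited to the intervals given, and low genes such as Sarm1 could not be tested.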

Other observations

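The expected counts of 5 of the 10 genes (Tirap, Irak1, Irak2, Irak4 and Map3k7) were not whole numbers in every library. This marks divided reads, and no partner gene was identified. The levels of these 5 genes, and the fold changes, shares and ratios that use them, are uncertain to that extent. Irak4 has 1 listed transcript, so its reads were not divided among its own transcripts, while Traf6, with 2, had whole counts. Expected counts of Map2k1 and Map2k2 added up to whole numbers in all 6 libraries, within a tolerance of 0.02, as did those of Tlr1 and Tlr6. The summed counts of Tlr1 and Tlr6, which do not depend on that division, were 2496, 2431 and 2351 in the DA libraries, against 4946, 5116 and 4706 in the Pam3CSK4 libraries.

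The deposited length, which the authors' files give per gene and library, did not overlap between groups for 2 of the 10 genes, both among the 5 whose length varied between libraries. Of 12354 tested genes listed in all libraries 781 did not overlap, which is 6.32% of them and 20.9% of the 3732 whose length varied. Tirap had 4696.92, 4702.30 and 4705.35 bases with DA, against 4729.16, 4713.46 and 4720.09 bases with Pam3CSK4. Traf6 had 6055.81, 6057.06 and 6051.11 bases with DA, against 6069.07, 6078.51 and 6117.82 bases with Pam3CSK4. Irak1, Irak2 and Map3k7 varied with overlapping groups, and the other genes had 1 length in all libraries. These differences were not tested.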
